A study of Mus musculus with 54 samples.

Results

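The comparison described here set the kidneys of old male mice whose diet held corylin, a plant flavonoid found in Psoralea corylifolia, against the kidneys of old male mice fed the control diet. Its members were the raw count columns of the corylin group (3 libraries) and of the old group (3 libraries), 6 of the 54 samples of the series, and all 17174 expressed genes of the 55471 in the kidney table were examined. The series profiled poly(A) RNA of liver, kidney and quadriceps from inbred C57BL/6J mice of both sexes, to see how the diet acts in each tissue and sex. All 6 mice were 130 weeks old, the labels name no transgene or deletion, and each library came from 1 mouse. Young male kidneys (50 weeks, 3 libraries) and the kidneys of old females on both diets (3 libraries each) served as references. The labels give no dose, no length of feeding, no hour of tissue collection and no feeding state.

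The kidney keeps its own circadian clock. In it the proteins CLOCK and BMAL1 (encoded by Arntl) switch on genes through E-box sequences, PER and CRY proteins block them in turn, and REV-ERB and ROR receptors compete for the sites that set the level of Arntl. Downstream factors such as DBP, TEF and HLF act through D-box sequences, where NFIL3 opposes them. Proximal tubule cells draw most of their energy from fatty acids, and PPAR receptors and the kinase PDK4, which holds back the use of glucose, take part in that choice.

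Total counts, in multiples of 1e+06, were 18.94, 15.49 and 18.29 in old 1 to 3 and 17.76, 14.04 and 8.69 in corylin 1 to 3, so values of corylin 3 carried the largest counting error. Across genes, Pearson's r of log2 CPM between libraries was 0.985 to 0.987 within the old group, 0.977 to 0.98 within the corylin group and 0.975 to 0.984 between the groups, and corylin 1 and 2 each correlated better with every old kidney (0.981 to 0.984) than with another corylin kidney. Proximal tubule markers summed to between 25590 and 35790 CPM (counts per 1e+06 counts of a library) in all 6 libraries, and the Y-linked gene Kdm5d lay between 17.8 and 24.8 CPM, as the labels of tissue and sex require. Among markers of tissues that could be carried along, the liver gene Alb was at 5.84 to 11.5 CPM and the fat gene Adipoq at 0 in 4 libraries and at 0.114 and 0.0579 CPM in corylin 3 and old 3. As whole lists, hepatocyte markers summed to 662 to 695 CPM with corylin and 634 to 943 CPM in old kidneys, and adipocyte markers to 579 to 769 and 741 to 796 CPM. Blood and platelet markers summed to 349, 254 and 763 CPM in corylin 1 to 3 and to 352 to 443 CPM in old kidneys, highest in corylin 3. None of the 11, 7 and 8 tested members of these lists passed the threshold (0.0699% of all genes did). The part of these lists in the results was not tested.

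With the corylin diet, 12 genes passed the threshold, an adjusted p under 0.05 in edgeR's quasi-likelihood test (0.0699% of genes tested). Higher were 5 of them (0.0291%): the clock genes Dbp, Per3 and Bhlhe41, the detoxifying enzyme gene Ephx1 and the processed pseudogene Gm8128. Lower were 7 (0.0408%): the clock gene Nfil3, the fuel-use genes Pdk4, Acsl1, Ppard and Slc16a1, the mitochondrial protease gene Clpx, and Ypel2. At an unadjusted p under 0.05 there were 1245 genes (7.25%), 617 higher and 628 lower. In 2842 genes (16.5%) the 3 corylin libraries did not overlap the 3 old ones, 1358 higher (7.91%) and 1484 lower (8.64%), and all 12 genes past the threshold were among them. The median log2 fold change over all genes was 0.01. In whole kidney, fewer cells of a type and less RNA per cell cannot be told apart.

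**Figure D1:**
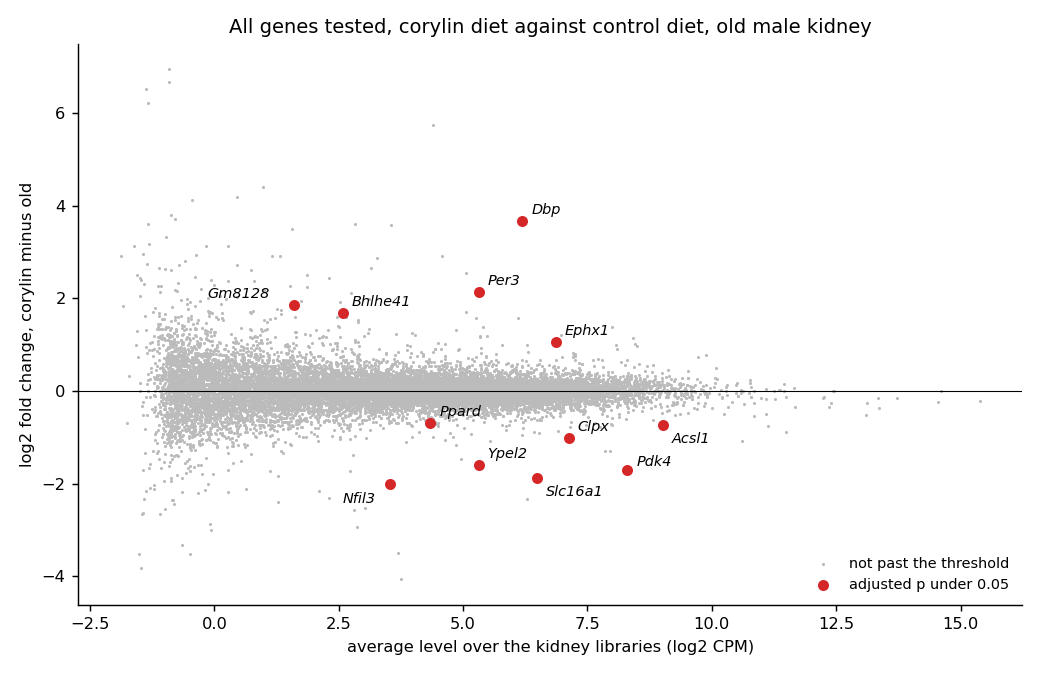
Each point is 1 of the 17174 genes tested, with its average level over the kidney libraries in log2 CPM on the horizontal axis and its log2 fold change, corylin minus old, on the vertical axis. Red points are the 12 genes with an adjusted p under 0.05, from Dbp at 3.67 to Nfil3 at -2.02; grey points with larger folds did not pass.

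The count rested on few animals. Leaving out 1 library at a time gave 9, 11 and 3 genes without corylin 1, 2 or 3 and 2, 6 and 10 without old 1, 2 or 3. Gm8128 and Pdk4 passed in each of these 6 fits. With corylin 2 as the lone corylin library, an alternative chosen after the data were seen, no gene passed in edgeR (907 at an unadjusted p under 0.05). In that fit the lone library is assumed to vary like the other kidney groups, and the log2 fold changes were 3.92 for Dbp, -2.50 for Nfil3, -1.5 for Pdk4 and 2.05 for Gm8128. Without a filter on low counts 14 genes passed, 7 of them among the 12, and in a fit over the 6 libraries alone 10 passed, 5 of them among the 12. The library names carry a letter, B or R, whose meaning is not given, and each group held 2 B and 1 R. Since the groups of the 12 genes do not overlap, their direction within a letter is fixed, and the sizes are given instead: the B and R differences in log2 CPM were 4.08 and 3.13 for Dbp, 2.02 and 2.26 for Per3, -2.41 and -1.19 for Nfil3, and -1.79 and -1.60 for Pdk4. A fit over the B libraries alone called 2 genes. The authors' deposited table, from a tool that is not named, lists 84 genes with an adjusted p under 0.05 (26 higher, 58 lower), and these hold all 12.

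Clock genes made up the first group. Of 14 genes listed as clock repressors and outputs, 3 passed as higher and 0 as lower (0.0291% and 0.0408% of all genes did). Without overlap 10 were higher (7.91% of all genes were). Their fold changes were above 0 in 13 and below 0 in 1, with a median log2 fold change of 0.98. Of 6 genes listed as the activator arm, 1 passed as lower and 0 as higher. All 6 fold changes were below 0, 5 genes were lower without overlap (8.64% of all genes were), and the median was -1.22. The gene that passed, Nfil3, encodes a repressor, and stands in that list because REV-ERB and ROR set its level as they set that of Arntl.

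Dbp encodes a transcription factor that drives D-box genes in liver and kidney and is itself a direct CLOCK-BMAL1 target. It was at 79.4, 140.4 and 136 CPM in corylin 1 to 3 and at 5.27, 7.13 and 15.4 CPM in old 1 to 3. Every corylin kidney was thus several times above the highest old one, and the means of 118 and 9.27 CPM differed 12.7-fold (SD 33.9 and 5.39, n = 3 each). Its log2 fold change was 3.67 ± 0.55 (SE; adjusted p = 0.0132). Without corylin 3, old 1 or old 2 the call was lost, the adjusted p over the 6 fits running from 0.0215 to 0.151 and the log2 fold change from 3.39 to 4.26. The call was also lost without a filter (adjusted p = 0.1) and in the fit over the 6 libraries (0.117).

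Per3 encodes a period protein, a member of the repressor complex. Its levels were 40.3, 47.1 and 76.7 CPM in corylin 1 to 3 and 10.5, 10.8 and 15.9 CPM in old 1 to 3. No old kidney reached the lowest corylin kidney, and the log2 fold change was 2.13 ± 0.33 (adjusted p = 0.0132), or 4.39-fold. The same 3 libraries decided its call as for Dbp, with an adjusted p of up to 0.151 when 1 was left out, and the call was lost too without a filter (0.0951) and in the fit over the 6 libraries (0.0781).

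Bhlhe41 encodes DEC2, a repressor that binds E-boxes. It was low throughout, at 6.52, 9.72 and 10.6 CPM with corylin against 2.47, 2.31 and 3.42 CPM in old 1 to 3. The groups were apart by a log2 fold change of 1.69 ± 0.29 (adjusted p = 0.0355). Only in the fit without corylin 1 was the call kept (adjusted p = 0.0295); in the other 5 the adjusted p reached up to 0.202. With limma voom it was 0.0651 and in the fit over the 6 libraries 0.0623.

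Nfil3, the D-box repressor, went the other way. It was at 4.65, 3.47 and 6.58 CPM in corylin 1 to 3 and at 22.9, 20.9 and 15.2 CPM in old 1 to 3. The highest corylin kidney was below the lowest old one, and the level was 4.07-fold lower (log2 fold change -2.02 ± 0.27, adjusted p = 0.00674). Without old 1 the adjusted p was 0.0586, and in the other 5 fits the call was kept.

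Promoter sequence is shown for 4 clock genes as examples of the motifs through which the loop works: 3 that passed the threshold and Ciart. Ciart did not pass and was taken for the number of E-boxes in its window. Dbp, which also passed, is not among the 4, and none of the motifs stood in its window. The windows are the 250 bases before the start of the gene in RefSeq on build GRCm38.p6, all on the minus strand and written 5′ to 3′ along the gene, with the motif in capitals. Per3 (chr4:151044666-151044915) holds 2 D-boxes (TTATGTAA), Ciart (chr3:95882229-95882478) holds 3 E-boxes (CACGTG), Bhlhe41 (chr6:145865421-145865670) holds 1 E-box, and Nfil3 (chr13:52981040-52981289) holds 1 ROR element, which reads TAGGTCA on the opposite strand.
Per3: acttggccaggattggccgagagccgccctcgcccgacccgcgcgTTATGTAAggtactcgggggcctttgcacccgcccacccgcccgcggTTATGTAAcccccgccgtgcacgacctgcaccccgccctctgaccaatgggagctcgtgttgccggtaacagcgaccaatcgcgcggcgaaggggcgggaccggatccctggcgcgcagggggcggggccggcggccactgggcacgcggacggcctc
Ciart: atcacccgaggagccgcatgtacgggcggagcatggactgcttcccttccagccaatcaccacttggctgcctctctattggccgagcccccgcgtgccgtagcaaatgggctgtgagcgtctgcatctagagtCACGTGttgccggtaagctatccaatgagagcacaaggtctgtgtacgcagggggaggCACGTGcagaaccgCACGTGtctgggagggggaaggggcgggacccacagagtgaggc
Bhlhe41: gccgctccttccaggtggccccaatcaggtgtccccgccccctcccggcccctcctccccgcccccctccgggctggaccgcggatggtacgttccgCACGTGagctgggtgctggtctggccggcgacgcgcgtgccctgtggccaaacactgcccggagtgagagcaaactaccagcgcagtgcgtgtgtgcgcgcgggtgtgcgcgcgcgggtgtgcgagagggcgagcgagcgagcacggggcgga
Nfil3: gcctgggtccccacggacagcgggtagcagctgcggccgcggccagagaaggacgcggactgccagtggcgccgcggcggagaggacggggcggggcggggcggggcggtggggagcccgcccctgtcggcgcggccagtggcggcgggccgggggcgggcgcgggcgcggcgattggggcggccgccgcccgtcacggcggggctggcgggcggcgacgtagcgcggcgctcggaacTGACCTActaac

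The letters were searched on both strands in windows from 250 bases before to 50 bases after a start, and 24 of 27 genes looked up (the clock genes and the other genes past the threshold) had such a window. CACGTG stood in 7.15% of all 32851 windows, the D-box words TTATGTAA and TTACGTAA in 1.06% and TAGGTCA in 2.61%. Further E-boxes stood in windows of Tef, Per1, Cry1 and Slc16a1, and a further ROR element in a window of Arntl. None of these words stood in the windows of Dbp, Nr1d1, Nr1d2, Cry2, Hlf, Usp2, Clock, Npas2 or Rora. The same held for Pdk4, Acsl1, Clpx, Ppard, Ypel2 and Ephx1. In the Per3 window the D-boxes began 205 and 158 bases before the start, and in the Ciart window the E-boxes began 116, 58 and 44 bases before it. A match of letters describes the window, not binding.

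The partners of the loop that did not pass showed these values. Ciart, whose product CHRONO represses CLOCK-BMAL1, was at 5.77, 8.64 and 17.4 CPM with corylin and at 0.505, 0.642 and 1.39 CPM in old 1 to 3 (log2 fold change 3.60 ± 0.97, adjusted p = 0.315). Per2, another period gene, was at 24.3, 28.2 and 69.8 CPM against 11.6, 13.6 and 12 CPM (1.70 ± 0.50, adjusted p = 0.404). In both genes the groups did not overlap, and corylin 3 stood well above the other corylin kidneys.

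Arntl, the gene of BMAL1, was at 5.61, 2.08 and 1.93 CPM with corylin and at 22.3, 19.9 and 15.6 CPM in old 1 to 3 (-2.52 ± 0.53, adjusted p = 0.114). Npas2, a CLOCK relative that can replace it, was at 4.22, 2.16 and 1.48 CPM against 27, 21.3 and 15.6 CPM (-2.95 ± 0.56, adjusted p = 0.0556). Every corylin kidney lay below every old one in both. Npas2 lay just outside the threshold. The genes nearest to the threshold inside were Slc16a1 and Ypel2, at adjusted p of 0.0398 and 0.0384, and those nearest outside were Pnrc1, Hmox1, Nectin1, Lrig2 and Gm26532, which tied at 0.051.

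The REV-ERB beta gene Nr1d2 (135, 160 and 195 CPM against 51.1, 64.4 and 96.4) and the D-box factor gene Tef (344, 458 and 477 against 180, 143 and 253) were higher without overlap, at log2 fold changes of 1.21 ± 0.28 and 1.15 ± 0.32 (adjusted p = 0.156 and 0.347). Cry2, a repressor gene, was higher without overlap too, at 0.69 ± 0.19 (adjusted p = 0.326). Some members overlapped: the REV-ERB alpha gene Nr1d1 (0.66 ± 0.34), Per1 (0.16 ± 0.37) and Cry1 (-0.44 ± 0.45). Clock itself was at 51.7, 54.8 and 45.3 CPM against 64, 72.6 and 67.4 CPM, a log2 fold change of -0.42 ± 0.15 (adjusted p = 0.568).

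**Figure D2:**
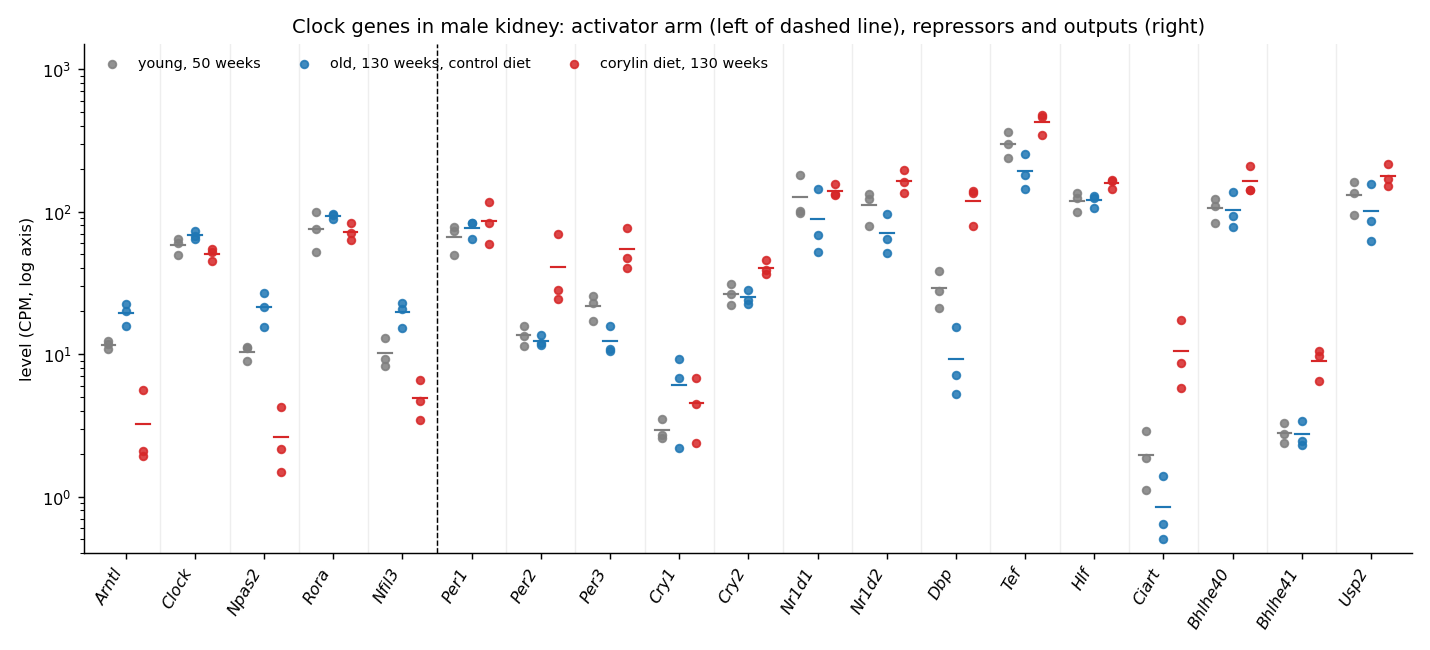
Level of 19 clock genes in each male kidney library, in CPM on a log axis, for young (grey), old control-diet (blue) and corylin (red) mice; points are single libraries and short lines are group means. Old kidneys of Dbp sit between 5.27 and 15.4 CPM and corylin kidneys between 79.4 and 140.4 CPM, while for Nfil3 the order is reversed. A member of the activator arm list is not plotted.

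Young kidneys are given side by side, since their comparison shares the old libraries. Dbp was at 27.8, 21 and 38 CPM in young 1 to 3, Per3 at 17, 25.4 and 22.9 CPM, and Nfil3 at 12.9, 9.29 and 8.26 CPM. Bhlhe41 was at 2.76, 2.37 and 3.29 CPM, within reach of the old values. Old minus young gave log2 fold changes of -1.64 ± 0.53 for Dbp, -0.81 ± 0.32 for Per3 and 0.95 ± 0.25 for Nfil3, none past the threshold (adjusted p = 0.234, 0.34 and 0.149). 

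The same mice gave liver and quadriceps, except that corylin 2 gave no liver library used here. In liver Per3 was at 69.6 and 40.6 CPM in the 2 corylin libraries and at 2.56, 1.83 and 3.88 CPM in old 1 to 3 (4.32 ± 0.51, adjusted p = 0.00371). Liver Arntl was at 1.63 and 2.75 CPM against 21.3, 18.7 and 16.3 CPM (-3.09 ± 0.48, adjusted p = 0.0259). Both passed in liver, in the direction seen in kidney.

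In quadriceps Dbp was at 24.7, 36.5 and 26.6 CPM with corylin and at 6.66, 4.94 and 6.36 CPM in old 1 to 3 (2.29 ± 0.50, adjusted p = 0.293). There the groups did not overlap, though no gene of quadriceps passed the threshold (1380 of 14173 at an unadjusted p under 0.05). The median log2 fold changes of the activator arm and of the repressors and outputs were -1.22 and 0.98 in kidney, -1.58 and 1.47 in liver and -0.32 and 0.41 in quadriceps. Kidney, liver and quadriceps of 1 mouse share the hour and state in which the mouse was taken, and the part of collection time in these values was not tested.

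In female kidney the same lists had medians of -0.28 and 0.30. Female Dbp had a log2 fold change of 0.25 ± 0.49, and the male minus female difference was 3.42 ± 0.72, which did not pass (adjusted p = 0.201). For Per3 the difference was 1.67 ± 0.44 (0.327) and for Nfil3 -1.19 ± 0.37 (0.392).

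**Figure D3:**
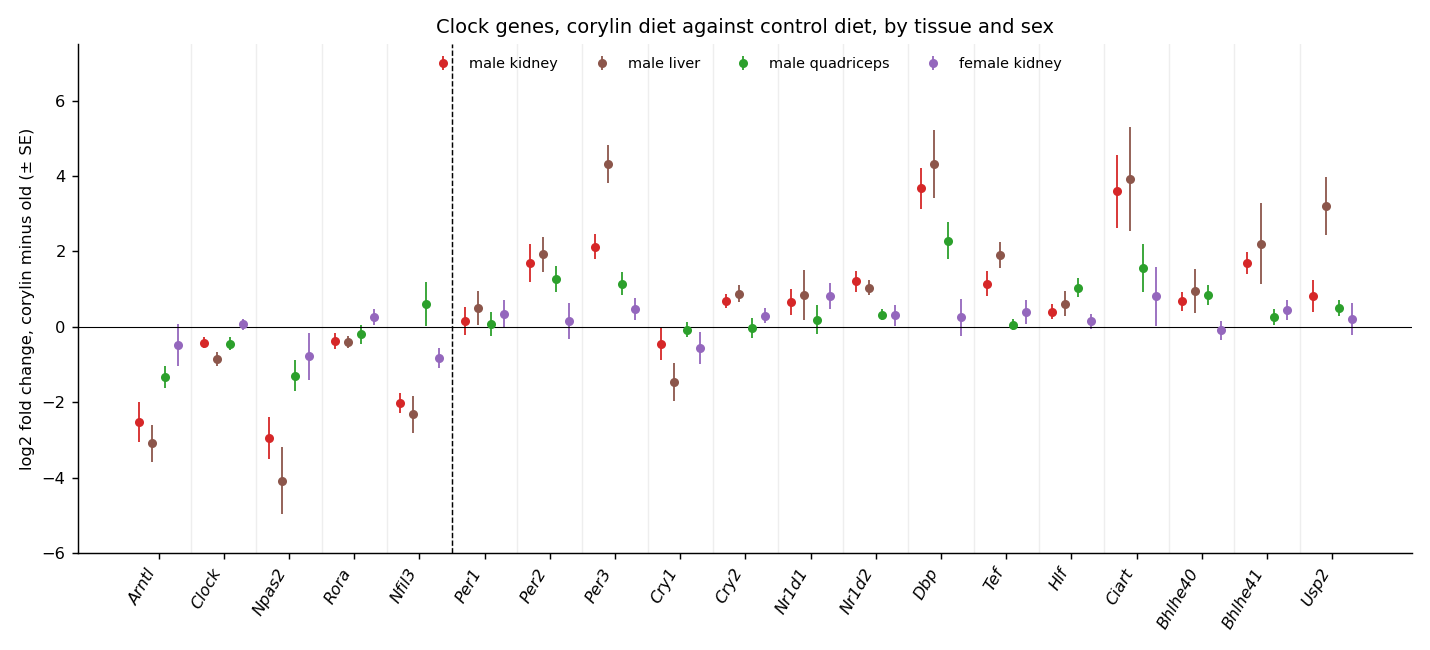
Log2 fold change, corylin minus old, with its SE for 19 clock genes in male kidney (red), male liver (brown), male quadriceps (green) and female kidney (purple), from the fit of each tissue. Dbp stands at 3.67 in male kidney, 4.31 in liver, 2.29 in quadriceps and 0.25 in female kidney. A member of the activator arm list is not plotted.

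Genes of fuel use formed the second group. The list of fatty acid oxidation and PPAR alpha targets had 35 tested members. Of these, 2 passed as lower (Pdk4 and Acsl1) and 0 as higher (0.0408% and 0.0291% of all genes did). Lower without overlap were 7 and higher 0 (8.64% and 7.91% of all genes were), 30 of 35 fold changes were below 0 (8273 of all 17174), and the median was -0.19.

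Pdk4 encodes the kinase that shuts pyruvate dehydrogenase and so spares glucose. It was at 112, 176 and 169 CPM in corylin 1 to 3 and at 448, 527 and 514 CPM in old 1 to 3. The gap between the groups was wide beside the spread within each (means 153 ± 34.9 and 496 ± 42.7 CPM, SD, n = 3). The level was 3.26-fold lower, a log2 fold change of -1.70 ± 0.22 (adjusted p = 0.00583), and between -1.52 and -1.82 with 1 library left out.

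Acsl1, which activates long-chain fatty acids for oxidation or storage, was at 381, 445 and 445 CPM with corylin and at 673, 681 and 757 CPM in old 1 to 3. This drop was small but tight, at 1.66-fold (-0.73 ± 0.11, adjusted p = 0.0132), and the call was kept only without corylin 2 (adjusted p = 0.0316; up to 0.118 in the other fits) and lost in the fit over the 6 libraries (0.0867). Ppard, the gene of the fatty acid receptor PPAR delta, was at 16.2, 16 and 16.2 CPM against 28.6, 27.8 and 22.5 CPM. Its log2 fold change of -0.70 ± 0.12 (adjusted p = 0.0355) passed without old 3 (0.0255) and in none of the other 5 fits (up to 0.202), and not without a filter (0.051), with limma voom (0.0533), over the 3 male kidney groups (0.0595) or over the 6 libraries (0.0873).

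Slc16a1 encodes MCT1, a carrier of lactate, pyruvate and ketone bodies. It was at 67.8, 72.4 and 30.3 CPM with corylin and at 219, 209 and 206 CPM in old 1 to 3. Corylin 3, the shallowest library, was lowest, yet the groups stayed far apart, 3.71-fold (-1.89 ± 0.33, adjusted p = 0.0398). The call did not survive any of the 6 fits without 1 library (adjusted p = 0.0654 to 0.208), nor the fits without a filter (0.2) and over the 6 libraries (0.112).

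Other members of the list were lower without passing. Plin2, which coats lipid droplets, was at 131, 231 and 135 CPM against 324, 568 and 329 CPM (-1.30 ± 0.28, adjusted p = 0.114). The thioesterase gene Acot2, whose reads may be shared with its near copy Acot1, was at 68.5, 98.4 and 63.5 CPM against 119.9, 121 and 113 CPM (-0.62 ± 0.15, adjusted p = 0.189). The receptor gene Ppara (-0.50 ± 0.40) and the carnitine transferase gene Cpt1a (-0.23 ± 0.15) overlapped between the groups. Corylin 2 was the highest corylin kidney for Plin2, Acot2 and Cpt1a, and it reached the old range in Cpt1a.

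Fatty acid synthesis genes were lower without overlap in 5 of 19 (8.64% of all genes were), among them Acaca (-0.23 ± 0.17) and Acly (-0.22 ± 0.14), with none past the threshold. At an unadjusted p under 0.05 in edgeR's test, 1 member of that list was higher and 1 was lower. In that list 16 of 19 fold changes were below 0 (8273 of all 17174). On the authors' TPM scale, which divides by gene length, Pdk4 had a mean of 357 in the old group and 113 with corylin, and Acsl1 169 and 106. Per length Pdk4 was thus the more abundant in old kidney, although its CPM level was the lower.

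Clpx, the unfoldase of a mitochondrial matrix protease, was at 126, 137 and 95.5 CPM with corylin and at 270, 223 and 230.2 CPM in old 1 to 3. Its level was 2.02-fold lower (-1.01 ± 0.15, adjusted p = 0.0109), and the call was lost without corylin 3 or old 1 (up to 0.0791). Clpx also fell in liver of the same mice, from 308, 315 and 318 CPM to 72.6 and 50.3 CPM (-2.35 ± 0.34, adjusted p = 0.0174). In quadriceps it was at 79.7, 101 and 96.7 CPM against 80.9, 111 and 111 CPM (-0.13 ± 0.18).

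Ypel2, a member of a conserved family of small zinc-binding proteins, was at 23.4, 25.4 and 25.9 CPM with corylin and at 67.7, 101 and 59.3 CPM in old 1 to 3. Old 2 was high within its group, and the log2 fold change was -1.61 ± 0.28 (adjusted p = 0.0384). The call was kept only without old 3 (adjusted p = 0.0421; up to 0.208 elsewhere) and lost without a filter (0.133).

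Of the genes lower in kidney, none passed in female kidney. Female log2 fold changes were 0.00 ± 0.21 for Pdk4, 0.16 ± 0.11 for Acsl1 and 0.12 ± 0.15 for Clpx. The male minus female differences were -1.70 ± 0.31, -0.89 ± 0.16 and -1.13 ± 0.21, each with an adjusted p of 0.107. Of the 12 genes, none had a difference between the sexes past the threshold. Over all genes 1 did (0.00582%): Slc7a13, a cystine carrier gene of the proximal tubule, which rose with corylin in females and had a log2 fold change of -0.20 ± 0.18 in males. The corylin effect differed between kidney and liver in 3 genes (0.0169% of 17795), Igfbp2, Chka and Npnt, and between kidney and quadriceps in 0 (0%; 1299 at an unadjusted p under 0.05, and 0 past the threshold by limma voom). None of the 12 genes was among them.

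Genes of detoxification held 1 gene past the threshold, Ephx1. Of 42 tested members of the xenobiotic metabolism list, 1 passed as higher and 0 as lower (0.0291% and 0.0408% of all genes did). Without overlap 9 were higher and 1 was lower (7.91% and 8.64% of all genes were). Their fold changes were above 0 in 26 and below 0 in 16, with a median of 0.09. Ephx1 encodes microsomal epoxide hydrolase, which turns reactive epoxides into diols. It was at 162, 113 and 159 CPM with corylin and at 57.5, 86 and 66.2 CPM in old 1 to 3. Every corylin kidney was above every old one, 2.07-fold on average (1.05 ± 0.17, adjusted p = 0.0237). Without corylin 1, corylin 3, old 1 or old 3 the call was lost (up to 0.201), as in the fit over the 6 libraries (0.109). Young kidneys were at 69.3, 58.5 and 57.6 CPM, so Ephx1 was also above the young level (corylin minus young 1.23, adjusted p = 0.00573). In female kidney its log2 fold change was 0.63 ± 0.17 (adjusted p = 0.157).

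Ugt1a2, a glucuronide-forming enzyme gene that shares exons with its neighbours, was at 9.3, 5.01 and 8.06 CPM against 1.85, 4.88 and 1.97 CPM (1.38 ± 0.31, adjusted p = 0.145). Old 2 came close to corylin 2, and the adjusted p was 0.0214 without old 2 and up to 0.62 in the other 5 fits without 1 library. Cyp2a5, which may share reads with Cyp2a4, was at 693, 888 and 781 CPM against 329, 381 and 491 CPM (0.98 ± 0.58, adjusted p = 0.757), and the sulfotransferase gene Sult1c2 at 77, 98.8 and 90.4 CPM against 65.3, 56.4 and 61.7 CPM (0.54 ± 0.14, adjusted p = 0.27). The abundant P450 genes Cyp2e1 and Cyp2j5 overlapped between the groups, with log2 fold changes of -0.07 ± 0.57 and 0.01 ± 0.14.

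Among glutathione and NRF2 targets, which guard against oxidants, none of 31 passed, 5 were higher and 4 lower without overlap (7.91% and 8.64% of all genes were), and the median was 0.00. Hmox1, the heme-degrading enzyme gene, was at 29.3, 41.3 and 37.7 CPM with corylin and at 72.3, 97.8 and 58.2 CPM in old 1 to 3 (-1.08 ± 0.20, adjusted p = 0.051; 0.0306 without old 3 and up to 0.244 in the other 5 fits without 1 library). Its groups did not overlap. Txnrd1, a thioredoxin reductase gene, was at -0.59 ± 0.18 (adjusted p = 0.434) and Gsta2, a glutathione transferase gene, at 0.63 ± 0.34 (0.717).

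Gm8128 had the smallest p of all genes. GENCODE M21 annotates it on build GRCm38 as a processed pseudogene (chromosome 16, 23034032 to 23034524), and its reads may belong to the gene it copies. It was at 6.79, 8.41 and 6.69 CPM with corylin and at 2.36, 1.67 and 2.03 CPM in old 1 to 3, with no overlap (1.85 ± 0.22, adjusted p = 0.00375).

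**Figure D4:**
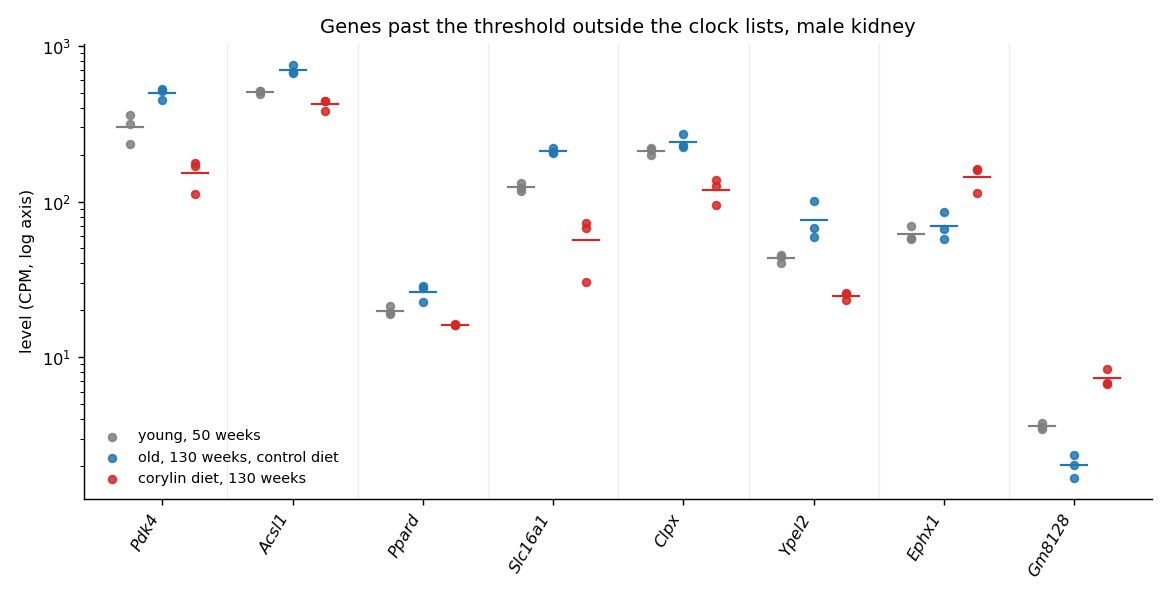
Level of the 8 genes past the threshold outside the clock lists in each male kidney library, in CPM on a log axis, for young (grey), old control-diet (blue) and corylin (red) mice; points are single libraries and short lines are group means. Pdk4 sits between 112 and 176 CPM with corylin and between 448 and 527 CPM in old kidneys.

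Next in order of p, without passing, the genes higher with corylin were Galnt3 (0.52 ± 0.11), which glycosylates FGF23, the mitochondrial nucleoside diphosphate kinase gene Nme4 (0.81 ± 0.18), Ugt1a2 and the sialic acid lyase gene Npl (0.75 ± 0.17), at adjusted p of 0.114 to 0.149. Pnrc1, a nuclear receptor coactivator gene, was at 74.8, 76.9 and 76.4 CPM against 149.5, 160.2 and 117 CPM (-0.90 ± 0.16, adjusted p = 0.051; 0.0395 without old 3 and up to 0.257 in the other 5 fits without 1 library). The 3 corylin kidneys were close to each other in Pnrc1, and all lay below the old ones.

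Genes of kidney damage gave no call. None of 22 tubular injury genes, 33 matrix genes, 32 interferon-stimulated genes, 15 MHC class I genes or 9 MHC class II genes passed, and their medians were -0.14, -0.08, 0.03, 0.04 and -0.13. Of all genes 0.0699% passed. Without overlap, in either direction, there were 0, 3, 0, 0 and 0 (16.5% of all genes were). All 9 fold changes of the MHC class II genes were below 0. Havcr1, which encodes the injury marker KIM-1, was at 3.9, 3.39 and 3.74 CPM with corylin and at 3.42, 16.7 and 2.66 CPM in old 1 to 3 (-1.03 ± 0.64, adjusted p = 0.769), so that old 2 alone was high. The complement gene C3 was at 89.3, 54 and 87 CPM with corylin, at 66.8, 128 and 107 CPM in old 1 to 3 and at 17.5 to 20.8 CPM in the young kidneys (corylin minus old -0.39 ± 0.24, adjusted p = 0.768).

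Immune cell markers also gave no call, where 0.0699% of all genes passed. Macrophage and monocyte markers had a median of -0.08 (0 of 20 passed), T cell markers -0.24 (0 of 14) and B and plasma cell markers -0.41 (0 of 15). Without overlap, in either direction, were 1, 0 and 1 of them (16.5% of all genes were). Their summed level was uneven within groups, with B and plasma cell markers at 1154, 507 and 1611 CPM in old 1 to 3 and at 899, 571 and 909 CPM in corylin 1 to 3. The immunoglobulin genes Igha (221, 13.9 and 23.7 CPM) and Jchain (47.9, 5.97 and 36.5 CPM) were among the 5 least even genes of the old group. The organic anion carrier gene Slco1a1 was another, at 113, 6.1 and 58.2 CPM.

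Among senescence and p53 genes none of 20 passed, 5 were higher and 1 lower without overlap (7.91% and 8.64% of all genes were), and the median was 0.08. Eda2r, a p53-induced receptor gene, was at 7, 5.09 and 7.83 CPM with corylin and at 2.41, 3.15 and 3.3 CPM in old 1 to 3 (1.16 ± 0.32, adjusted p = 0.33), and Phlda3, a p53-induced inhibitor of AKT, was at 0.82 ± 0.25 (0.438). Cdkn1a, the cell cycle inhibitor p21, was at 46.3, 40.2 and 51.4 CPM against 47, 76.4 and 81.9 CPM (-0.57 ± 0.23, adjusted p = 0.654). Old 1 lay within the corylin range for Cdkn1a. Cdkn2a was not among the genes with enough counts to be tested in kidney.

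Growth genes gave no call either. Ccnd1, the gene of cyclin D1, was at 322, 346 and 612 CPM against 209, 184 and 251 CPM (0.99 ± 0.26, adjusted p = 0.289), whereas Myc was at 16.7, 11.3 and 16.8 CPM against 27.3, 33.1 and 22.4 CPM (-0.89 ± 0.19, adjusted p = 0.114). The cell cycle list as a whole had a median of -0.09, with none of 29 past the threshold (0.0699% of all genes were). Without overlap, in either direction, were 5 of them (16.5% of all genes were). Ndrg1, a hypoxia-induced gene that is abundant in kidney, was at 2931, 3458 and 1692 CPM against 5626, 4243 and 5099 CPM (-0.89 ± 0.20, adjusted p = 0.152), and the vitamin D receptor gene Vdr at 337, 480 and 252 CPM against 552, 598 and 490 CPM (-0.62 ± 0.24, adjusted p = 0.608). In both, corylin 3 was lowest and no library crossed between the groups.

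Nephron markers gave no call. None of 30 proximal tubule, 21 loop and distal, 20 collecting duct or 18 podocyte and glomerular markers passed (0.0699% of all genes did). Their medians were 0.03, -0.11, 0.15 and -0.01, and 2, 2, 1 and 1 did not overlap (16.5% of all genes did not). Slc34a1, the proximal phosphate carrier gene, had a log2 fold change of 0.06 ± 0.25, Umod, the uromodulin gene of the thick limb, -0.26 ± 0.20, and Aqp2, the collecting duct water channel gene, 0.61 ± 0.34. Of 35 nuclear genes of the respiratory chain, 7 were higher and 1 lower without overlap (7.91% and 8.64% of all genes were). None was past the threshold, 29 of 35 fold changes were above 0 (8897 of all 17174), and the median was 0.07. Mitochondrially encoded genes had a median of -0.27, and none of 13 passed. Cholesterol synthesis genes were higher without overlap in 5 of 25 and lower in 2 (7.91% and 8.64% of all genes were), with a median of 0.13. Msmo1, a sterol oxidase gene of that path, had a log2 fold change of 0.60 ± 0.18 (adjusted p = 0.42).

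**Figure D5:**
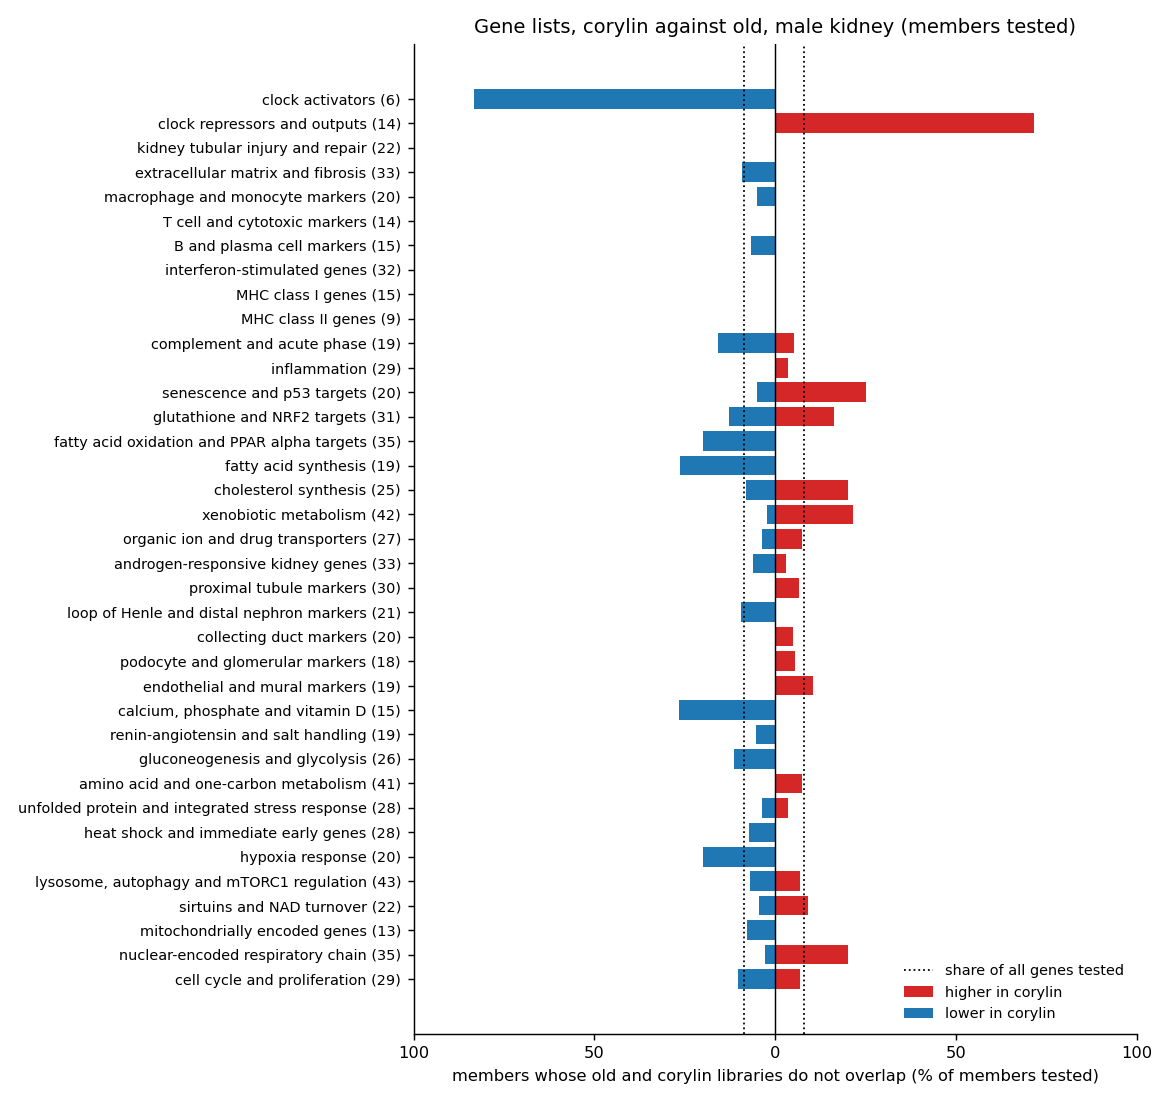
For each gene list, the share of its tested members (number in brackets) whose corylin libraries all lie above (red, right) or all below (blue, left) the old libraries, in percent. The dotted lines mark the same shares over all genes tested, 7.91% and 8.64%; the 2 clock lists reach furthest from them.

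Corylin 1 and 3 stood apart from corylin 2 in a set of epithelial genes. Aldh1a3, a retinoic acid-forming enzyme gene, was at 119.8 CPM in corylin 1, 0.926 in corylin 2 and 23.5 in corylin 3, and at 0.753 to 1.09 CPM in the old kidneys. Psca, a surface antigen gene, was at 58.8, 3.01 and 62.3 CPM against 4.5 to 6.9 CPM, and Igfbp2, an insulin-like growth factor binding protein gene, at 30.9, 1.08 and 35.3 CPM against 1.51 to 2.18 CPM. Upk3b (25.3, 1.93 and 22.7 CPM) and Fcgbp (94.2, 5.48 and 55.8 CPM) showed the same order, and these 5 genes had the largest spread within the corylin group among genes with an average log2 CPM of at least 3. None differed between the groups past the threshold (adjusted p = 0.568 to 0.674). A list of 10 urothelium markers, chosen after these values were seen, summed to 189, 85.2 and 226 CPM in corylin 1 to 3 and to 86.3 to 108 CPM in the old kidneys. All 10 fold changes were above 0 with a median of 0.82, 2 members had an unadjusted p under 0.05, and in none did the groups part without overlap. Its defining members Upk1a, Upk1b, Upk2 and Upk3a were at 0.588 to 5.11 CPM in the corylin kidneys and at 0.224 to 4.17 CPM in the old ones. The part of these libraries in the other results was not tested.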

How the data were processed

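Poly(A) RNA was extracted with TRIzol and made into stranded TruSeq libraries, per the labels' protocols. The submitters' processing notes list featureCounts 2.0.1, HISAT2 2.1.0, FastQC 0.11.9 and fastp 0.20.0, and the build GRCm38 (mm10). No source used here gives the annotation release, the strand setting of the counting or the tool of the authors' comparisons, so antisense and overlapping genes cannot be told apart. The authors deposited 1 table per tissue with a raw count for each gene in each library, its TPM value, and log2 fold changes with p-values of their own comparisons. All tests start from the deposited counts, which are whole numbers. The deposited TPM values gave means per length, and the authors' p-values and log2 fold changes a count of their calls. Of the per-sample columns, 0 stayed without a sample. GENCODE M21 (GRCm38), which holds 55144 of the 55471 gene IDs, gave positions, and RefSeq (GRCm38.p6) gave promoter windows.

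Genes were kept by filterByExpr (minimum count 10, minimum total 15). The quasi-likelihood F test of edgeR 4.0.16 (R 4.3.3; TMM, robust) was fitted over all 6 kidney groups (18 libraries), and p-values were adjusted by Benjamini-Hochberg over 17174 genes, with a threshold of 0.05. Sex differences were contrasts of that fit. Tissue differences came from 1 fit over 17 libraries of the 6 old and corylin males, with the animal as a block (7 residual degrees of freedom, 17795 genes). SE is that of the log2 fold change, calculated from the F statistic (absolute log2 fold change over the square root of F). CPM uses TMM library sizes. For kidney, p-values set a difference against the spread between mice within the 6 groups, estimated over the 18 libraries with information shared across genes. On simulated counts for corylin against old in male kidney (16947 genes), 63 of 100 changes of 1 on the log2 scale and 97 of 100 changes of 2 were recovered, with 5 false calls. These changes were placed only in genes with a mean of at least 2 CPM. The counts were drawn with the spread that the fit itself had estimated, and all groups otherwise shared 1 mean. The shares therefore do not show that an uncalled gene was unchanged.

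Named genes are those past the threshold with an average log2 CPM of at least 1, predicted genes left out, the next by p up to 8 a direction, list members with the smallest p or the highest level, and the 5 genes with the largest spread in each group. Some list members are counted but not reported by name here. Gm8128 and further clock and list members were named after their values were seen. The comparison, the gene lists and these rules were chosen with earlier results of these data known. Alternatives used RLE scaling, other filters, DESeq2 1.42.0, limma 3.58.1, other sample sets and the title's replicate number as a block.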

Additional observations from a re-analysis of the deposited data

Results flagged for a closer look

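The effect of corylin differed between the sexes in Slc7a13 (1708 genes had an unadjusted p under 0.05 for this difference). It was at 458, 432 and 401 CPM in corylin males and at 664, 315 and 508 CPM in old males, a log2 fold change of -0.20 ± 0.18, while in females it rose by 4.26 ± 0.43 (adjusted p = 0.000411). The male minus female difference was -4.46 ± 0.48 (adjusted p = 0.000923).

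Between kidney and liver of the same males, the corylin effect differed in 3 genes. Chka, a choline kinase gene, had a kidney minus liver difference of 2.23 ± 0.26 (adjusted p = 0.0251): it was at 75.1, 75.9 and 88.7 CPM with corylin and at 66.8, 81 and 71.5 CPM in old kidneys, and fell in liver from 97.4, 119.6 and 128 CPM to 27.1 and 29.6 CPM. Npnt, the gene of the matrix protein nephronectin, differed by 3.43 ± 0.42 (adjusted p = 0.0291), with 7.17 to 7.54 CPM in old livers and 1.06 and 0.131 CPM in corylin livers. Igfbp2 differed by 4.53 ± 0.51 (adjusted p = 0.0251); its kidney values rest on corylin 1 and 3, at 30.9 and 35.3 CPM, the animals that also gave a liver library, and corylin 2 was at 1.08 CPM. In the fits without 1 of the 6 kidney libraries, no more than 1 gene passed. Without corylin 2 it was 1 of these 3 genes, without corylin 1 it was none of them, and in the other fits 0 passed.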

How the results depend on the processing

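For corylin against old, the count of 12 genes became 82 with DESeq2, 23 with the library letter as a covariate, 22 in a fit over the 3 male kidney groups, 2 with B libraries only and 0 with corylin 2 as the lone corylin library (added after the data were seen). It was 10 to 16 under RLE scaling, both filters, limma voom and a fit over the 6 libraries, and 2 to 11 with 1 library left out; DESeq2 called all 12 genes, while 7 of the 12 passed without a filter, 10 with limma voom and 5 in the fit over the 6 libraries. The replicate numbers of the titles do not pair the mice (deviations of same-numbered libraries correlated at -0.113, -0.026 and -0.009, and each library correlated best with another number); with the replicate block 30 genes passed, 12 of them shared with the 12, and 2 genes passed for the difference between sexes. That difference was 1 gene in the main fit, under RLE scaling and with the stricter filter. It gave 9 genes without a filter, 67 with DESeq2, 0 with limma voom (1586 at an unadjusted p under 0.05) and 4 with the letter as covariate. With 1 library left out it gave 1 to 31, 31 without old female 3. With B libraries only 1 gene passed, and it was not Slc7a13. Kidney minus liver gave 5 genes without the animal block, which held 2 of Chka, Npnt and Igfbp2, and 2 genes with limma voom, which held 1. With 1 library left out it gave 0 to 1, and kidney minus quadriceps gave 0 to 1. Over the 12 genes and their alternatives there were 204 pairs of a gene and a fit. Of these pairs 128 kept the call and 76 lost it, and the fits share most of their libraries. No direction of the 12 turned, but their groups do not overlap, so leaving out libraries could hardly turn one. Turned directions, all far from the threshold, were Per1 at -0.07 with B libraries only and -0.39 with corylin 2 alone (-0.12 to 0.37 with 1 library left out, -0.12 without corylin 3), and Cry1 at 0.00 without old 1 (-0.84 to 0.00). The cause was not tested. Low genes are least precise in corylin 3, with a total of 8.69 times 1e+06 counts.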
